A study of Rattus norvegicus with 16 samples.

Results

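Glycolysis and glycogen metabolism were followed through 33 genes in rat soleus muscle. They covered upper glycolysis (Hk1, Gpi, Pfkm, Pfkl, Pfkp, Aldoa, Aldoc), lower glycolysis (Tpi1, Gapdh, Pgk1, Pgam1, Pgam2, Eno1, Eno3, Pkm) and the enzymes that set fructose bisphosphate signals (Pfkfb1, Pfkfb2, Pfkfb3, Pfkfb4). The others were Fbp2 with the glycerol-phosphate dehydrogenases Gpd1 and Gpd2, glycogen breakdown (Pygm, Pygb, Phka1, Phkb, Phkg1) and glycogen synthesis (Gys1, Gyg1, Gbe1, Ugp2, Pgm1, Epm2a). A gene counted as measured where a probe set carried its symbol and no other, and the probe set of highest mean over the 16 arrays gave its value. By this rule 31 of the 33 genes could be tested, among 14217 genes on the array. Gapdh was present only as control spots, and its levels are given without a test. Pkm, the muscle pyruvate kinase, shared its probe set with a pseudogene symbol, so no value is given for it.

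The 16 arrays held soleus RNA of 16 female rats, 1 rat each, in 4 groups of 4. HCR trained and HCR sedentary rats came from a line selected over generations for high running capacity, and LCR trained and LCR sedentary rats from the line selected for low capacity. Both lines descend from N:NIH stock, were at generation 16, were run-tested at 11 weeks and were about 7 months old. Trained rats ran uphill intervals on 5 days a week for 8 weeks, with 8 min at 85 to 90% of maximal oxygen uptake alternating with 2 min of recovery, and were killed 48 hours after the last session. Sedentary rats were of the same age. The values are from whole muscle, so that fewer cells of a type and less RNA per cell cannot be told apart.

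Glycolysis splits glucose into pyruvate and yields ATP without oxygen, and glycogen is the glucose store that muscle breaks down at the start of contraction. Phosphofructokinase is the committed step, glycogen phosphorylase and its activator phosphorylase kinase release glucose units from glycogen, and glycogen synthase puts them back. The soleus is a slow, oxidative muscle, and fast glycolytic fibres are known to hold more of these enzymes than slow ones. Several steps have a muscle isozyme and others that are used in other tissues.

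Values are log2 expression values of a probe set, and differences are log2 differences of group means, trained minus sedentary or HCR minus LCR, with their standard error (SE). A log2 difference of 1 is a doubling. The test was limma's moderated test over all 31042 probe sets that are not controls, with Benjamini-Hochberg adjustment, and a gene passed at an adjusted p under 0.05. Levels of different probe sets cannot be set against each other, so each gene is compared only with itself.

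A pair of arrays stood apart before any group was compared. On HCR trained 3 the 14 slow fibre markers averaged 2.20 log2 units below their mean over all arrays and the 16 fast fibre markers 2.08 above it, while the other 15 arrays lay between 0.07 and 0.26 for the slow markers. Myh7, the slow myosin heavy chain, which was chosen after its values were seen, read 12.05 on HCR trained 3 and 14.27 to 14.52 on the other arrays. The defining slow fibre markers of soleus were thus bright on 15 arrays and dimmer on this array. On HCR sedentary 2 the 15 matrix and fibroblast markers averaged 1.74 above their mean and the 15 macrophage and leukocyte markers 1.27 above theirs, each the highest of the 16 arrays. LCR trained 2 came next for matrix markers at 1.19. HCR trained 2 had a GAPDH control signal 1.67 higher at the 3' end than at the 5' end, against 0.48 to 0.77 on the other arrays.

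The members followed the same arrays. HCR trained 3 was the highest of 16 arrays for 18 of the 31 genes (58.1%) and for 18.6% of all probe sets, and the lowest for 4 (12.9%) and for 12.4%. Against the mean of the other 3 HCR trained arrays it was over 1 log2 unit higher for 12 genes, among them Fbp2 by 3.41, Gpd1 by 2.74, Phka1 by 2.13, Phkg1 by 2.04 and Phkb by 1.96. It was over 1 log2 unit lower for 2, Gbe1 at -1.31 and Pfkp. HCR sedentary 2 was the lowest array for 10 genes (32.3%, against 14% of all probe sets) and the highest for 5, namely Hk1, Pfkp, Pgam1, Eno1 and Pygb (16.1%, against 13.3%). Most differences that rest on HCR rats are therefore also given without HCR trained 3, or without both arrays. Without both, the sign of the HCR training difference turned for 12 of the 31 genes, namely Hk1, Pfkl, Pfkp, Aldoc, Pgam1, Pgam2, Eno1, Fbp2, Pygb, Phkb, Gys1 and Gbe1. LCR trained 2 was the lowest array for 6 genes (19.4%, against 10.5% of all probe sets) and was not left out there. The part of fibre makeup or of other cells in the differences was not tested.

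**Figure D1:**
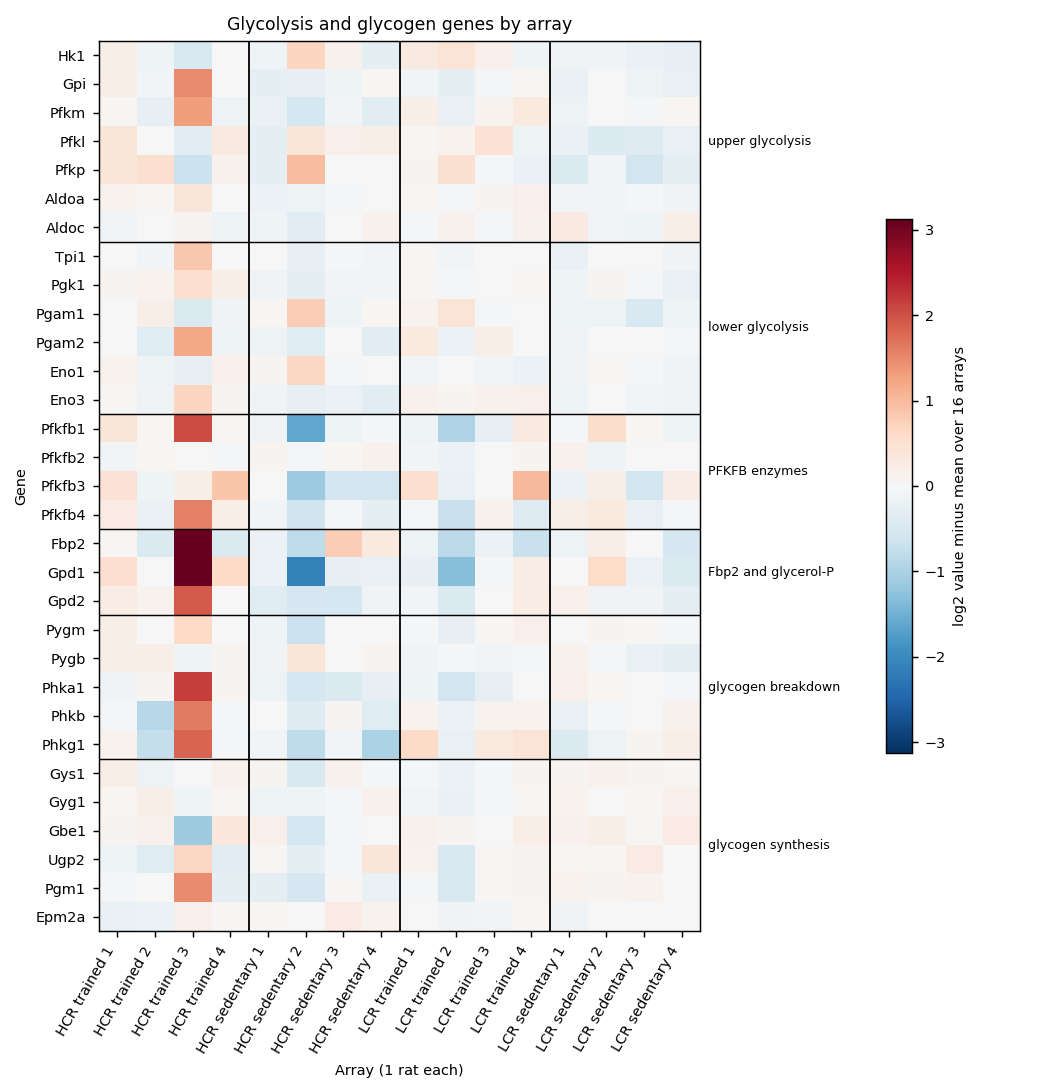
Heat map of the 31 tested genes (rows, grouped by role) on the 16 arrays (columns, 1 rat each). Colour is the log2 value minus the gene's mean over 16 arrays, red above and blue below. The column HCR trained 3 holds the deepest red, in Fbp2, Gpd1 and Phka1, and HCR sedentary 2 the deepest blue, in Gpd1 and Pfkfb1.

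No member passed the adjusted threshold in any of the 7 comparisons, and the percentages of all probe sets that passed were small as well. For training in HCR rats 0 of 31 genes passed, against 0.187% of all probe sets. For training in LCR rats it was 0 of 31, against 0.00322%. Between trained HCR and LCR rats it was 0 of 31, against 0.374%, and between sedentary HCR and LCR rats 0 of 31, against 0.00966%. For the difference of the training effects between lines it was 0 of 31, with 0 probe sets of the array. Training averaged over both lines gave 0 of 31, against 0.00644%, and the lines averaged over both training states gave 0 of 31, against 0.087%.

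At limma's unadjusted p under 0.05 the shares differed more between comparisons. With every array kept, training in HCR rats reached it in 11 of 31 genes (35.5%), all with higher means in trained rats, against 17.7% of all probe sets. Training in LCR rats reached it in 1 gene (3.23%), against 9.76%. The trained lines reached it in 4 genes (12.9%), against 19.7%, and the sedentary lines in 2 (6.45%), against 8.37%. The difference of training effects reached it in 7 genes (22.6%), against 18.3%. Training over both lines reached it in 4 genes (12.9%), against 9.55%, and the lines over both training states in 1 (3.23%), against 10.4%. By non-overlap of the 4 arrays against 4, training in HCR separated 7 genes (22.6%), against 7.61% of all probe sets, and training in LCR 4 genes (12.9%), against 8.5%. HCR and LCR did not overlap in 1 gene among trained rats (3.23%), against 13.6%, and in 2 among sedentary rats (6.45%), against 4.87%. These counts keep HCR trained 3, the highest array for 18 of the 31 genes, and are not given without it. The base is also unlike the members. Each member is its gene's brightest probe set, while 9780 of the 31042 probe sets carried no symbol.

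The median training difference over the 31 genes was 0.33 in HCR rats, with 21 positive and a range of -0.29 to 1.76, beside 0.00436 over all probe sets. In LCR rats it was 0.0055, with 16 positive and a range of -0.37 to 0.44, beside -0.024 over all probe sets. Leaving out HCR trained 3 brought the HCR median to 0.147, and leaving out HCR sedentary 2 as well brought it to 0.121, with 23 genes positive. The HCR median was thus smaller without these arrays and kept its sign.

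**Figure D2:**
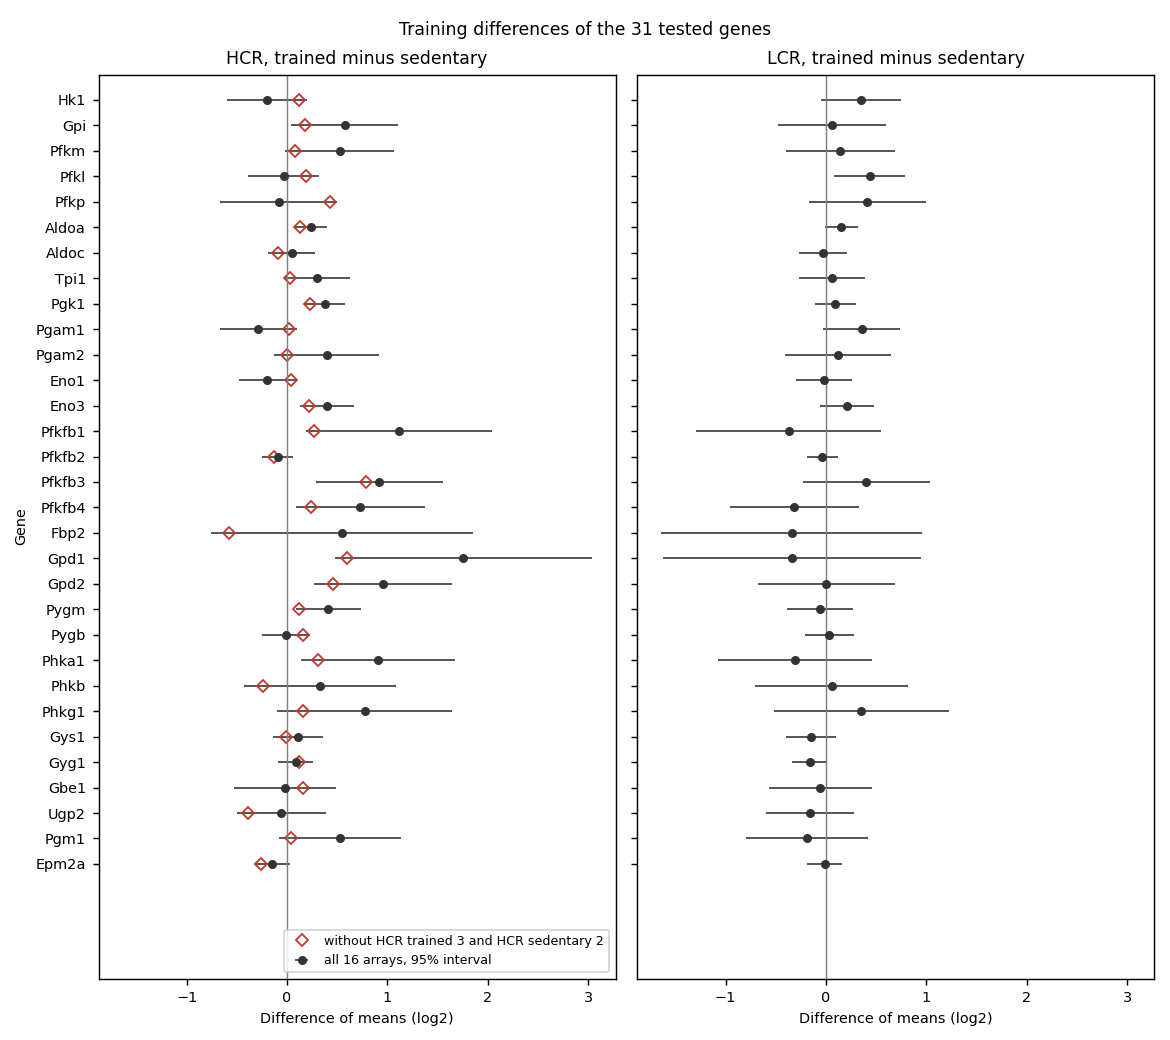
Training differences of the 31 genes, trained minus sedentary, in HCR rats (left) and LCR rats (right), as log2 differences of group means with 95% intervals (black). Red diamonds give the HCR difference without HCR trained 3 and HCR sedentary 2, which is -0.58 for Fbp2 (0.55 with all arrays), 0.60 for Gpd1 (1.76) and 0.79 for Pfkfb3 (0.92).

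Upper glycolysis held 7 tested genes, of which 4 had a positive HCR training difference (median 0.04) and 6 a positive LCR difference (median 0.15). Without both outlying arrays 6 were positive in HCR rats (median 0.13). Hk1, the hexokinase that traps glucose in the cell, read 7.21, 6.89, 6.54 and 7.04 in HCR trained rats, against 6.89, 7.70, 7.16 and 6.72 in HCR sedentary rats. In LCR rats it read 7.31, 7.44, 7.19 and 6.88 in trained animals, against 6.92, 6.92, 6.82 and 6.75 in sedentary ones. The groups overlapped in both lines, and the differences were -0.20 in HCR (adjusted p = 0.617) and 0.35 in LCR rats (adjusted p = 0.561). Without both outlying arrays the HCR difference of Hk1 was 0.12. The other Hk1 probe set, which was dimmer, gave 0.04 in HCR and -0.02 in LCR rats, with signs opposite to the brightest.

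The phosphofructokinase isozymes differed among themselves. Pfkm, the muscle isozyme, read 12.52, 12.22, 13.77 and 12.32 in HCR trained rats, against 12.27, 11.92, 12.39 and 12.15 in HCR sedentary rats. Its LCR values were 12.65, 12.24, 12.59 and 12.78 in trained rats, against 12.31, 12.45, 12.41 and 12.52 in sedentary rats. One trained HCR array stood far above the others, the groups overlapped, and the HCR difference of 0.52 (SE 0.25, adjusted p = 0.300) was 0.08 without both outlying arrays. The LCR difference was 0.14. Other probe sets of Pfkm gave 0.09 and -0.07 in HCR rats, so they disagreed in sign. The probe set with -0.07 read 8.44 on HCR trained 2, the array with the widest GAPDH gap, and 10.01 to 12.50 on the other HCR trained arrays.

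Pfkl, the liver-type isozyme, read 6.57, 6.21, 5.87 and 6.47 in HCR trained rats, against 5.93, 6.59, 6.36 and 6.40 in HCR sedentary rats. In LCR rats Pfkl read 6.26, 6.32, 6.66 and 6.04 in trained animals, against 5.98, 5.78, 5.80 and 5.97 in sedentary ones, with no overlap between the LCR groups. It had the smallest p of the members for training in LCR rats, at a difference of 0.44 (SE 0.17, 1.35-fold, adjusted p = 0.432), and also between the sedentary lines, at 0.43 (adjusted p = 0.573). The sedentary-line value was 0.34 without HCR sedentary 2. The HCR training difference of Pfkl was -0.04 with all arrays and 0.19 without both outlying arrays, and trained HCR and LCR rats differed by -0.04, or by 0.10 without HCR trained 3.

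Pfkp, the platelet-type isozyme, read 6.96, 7.07, 5.91 and 6.72 in HCR trained rats, against 6.27, 7.54, 6.59 and 6.58 in HCR sedentary rats. In LCR rats Pfkp read 6.66, 7.06, 6.52 and 6.37 in trained animals, against 6.15, 6.50, 6.005 and 6.31 in sedentary rats. HCR trained 3 was the lowest of the 16 arrays for Pfkp and HCR sedentary 2 the highest, the reverse of Pfkm. Training gave -0.08 in HCR rats with all arrays and 0.43 without both outlying arrays, beside 0.41 in LCR rats (adjusted p = 0.631). Over both lines, without the outlying arrays, the training difference of Pfkp was 0.42 (adjusted p = 0.112).

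Aldoa, the muscle aldolase, was among the steadiest members. It read 14.16, 14.09, 14.44 and 14.06 in HCR trained rats, against 13.87, 13.90, 13.99 and 14.05 in HCR sedentary rats. In LCR rats the values were 14.12, 14.03, 14.14 and 14.23 in trained animals, against 13.99, 13.99, 14.00 and 13.94 in sedentary ones. Trained and sedentary arrays did not overlap in either line, but in HCR rats they nearly met, at 14.06 and 14.05. The differences were 0.23 in HCR (SE 0.08, adjusted p = 0.149), which was 0.13 without both outlying arrays, 0.15 in LCR (adjusted p = 0.544) and 0.19 over both lines (SE 0.05, 1.14-fold, adjusted p = 0.237), and the last was 0.14 without both outlying arrays. Gpi, which converts glucose phosphate to fructose phosphate, read 11.67 to 13.25 in HCR trained rats, against 11.45 to 11.81 in HCR sedentary rats. Its HCR difference of 0.57 was 0.18 without both arrays. In LCR rats Gpi differed by 0.06. Aldoc, the brain-type aldolase, differed by 0.04 in HCR rats, -0.09 without both outlying arrays, and by -0.03 in LCR rats.

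Lower glycolysis held 6 tested genes, of which 4 had a positive HCR training difference (median 0.34), or 5 without both outlying arrays (median 0.03). Pgk1, phosphoglycerate kinase, the step at which glycolysis first yields ATP, had the smallest p of all members for training in HCR rats. It read 12.54, 12.56, 12.96 and 12.62 in HCR trained rats, against 12.33, 12.14, 12.37 and 12.35 in HCR sedentary rats. All 4 trained arrays lay above all 4 sedentary arrays. The difference was 0.37 (SE 0.09, 95% interval 0.18 to 0.57, 1.30-fold, adjusted p = 0.0833), and it was 0.28 without HCR trained 3 (adjusted p = 0.0887) and 0.22 without both outlying arrays. The other probe sets of Pgk1, which were dimmer, gave 0.18 and 0.50.

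In LCR rats Pgk1 read 12.48, 12.38, 12.47 and 12.52 in trained animals, against 12.30, 12.52, 12.41 and 12.23 in sedentary ones, and these overlapped (difference 0.10, adjusted p = 0.757). The training effects of the lines differed by 0.28 (SE 0.13, adjusted p = 0.279), so a difference in response was not established. Over both lines the training difference of Pgk1 was 0.24 (SE 0.07, adjusted p = 0.233). Trained HCR and LCR rats did not overlap for Pgk1, at a difference of 0.21 (adjusted p = 0.231), which was 0.11 without HCR trained 3.

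Eno3, the muscle enolase, read 13.48, 13.33, 14.12 and 13.54 in HCR trained rats, against 13.34, 13.19, 13.26 and 13.09 in HCR sedentary rats. Its LCR values were 13.59, 13.54, 13.58 and 13.61 in trained rats, against 13.32, 13.47, 13.37 and 13.33 in sedentary rats. The LCR groups did not overlap, and the HCR groups met at a single point, where the lowest trained array lay just below the highest sedentary one. The differences were 0.40 in HCR (SE 0.12, adjusted p = 0.136), which was 0.23 without HCR trained 3, 0.21 in LCR (SE 0.12, adjusted p = 0.602) and 0.30 over both lines (SE 0.09, 1.23-fold, adjusted p = 0.244). Without HCR trained 3 the difference over both lines was 0.22 with an adjusted p of 0.0784. Pgk1, Aldoa and Eno3 were the 3 members of smallest p for training over both lines, and these passed when limma weighted the arrays by their quality (adjusted p = 0.0339, 0.0462 and 0.0246). With array weights 1148 probe sets passed in that comparison, against 2 with all arrays counted alike, and with all counted alike none of the 3 passed.

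**Figure D3:**
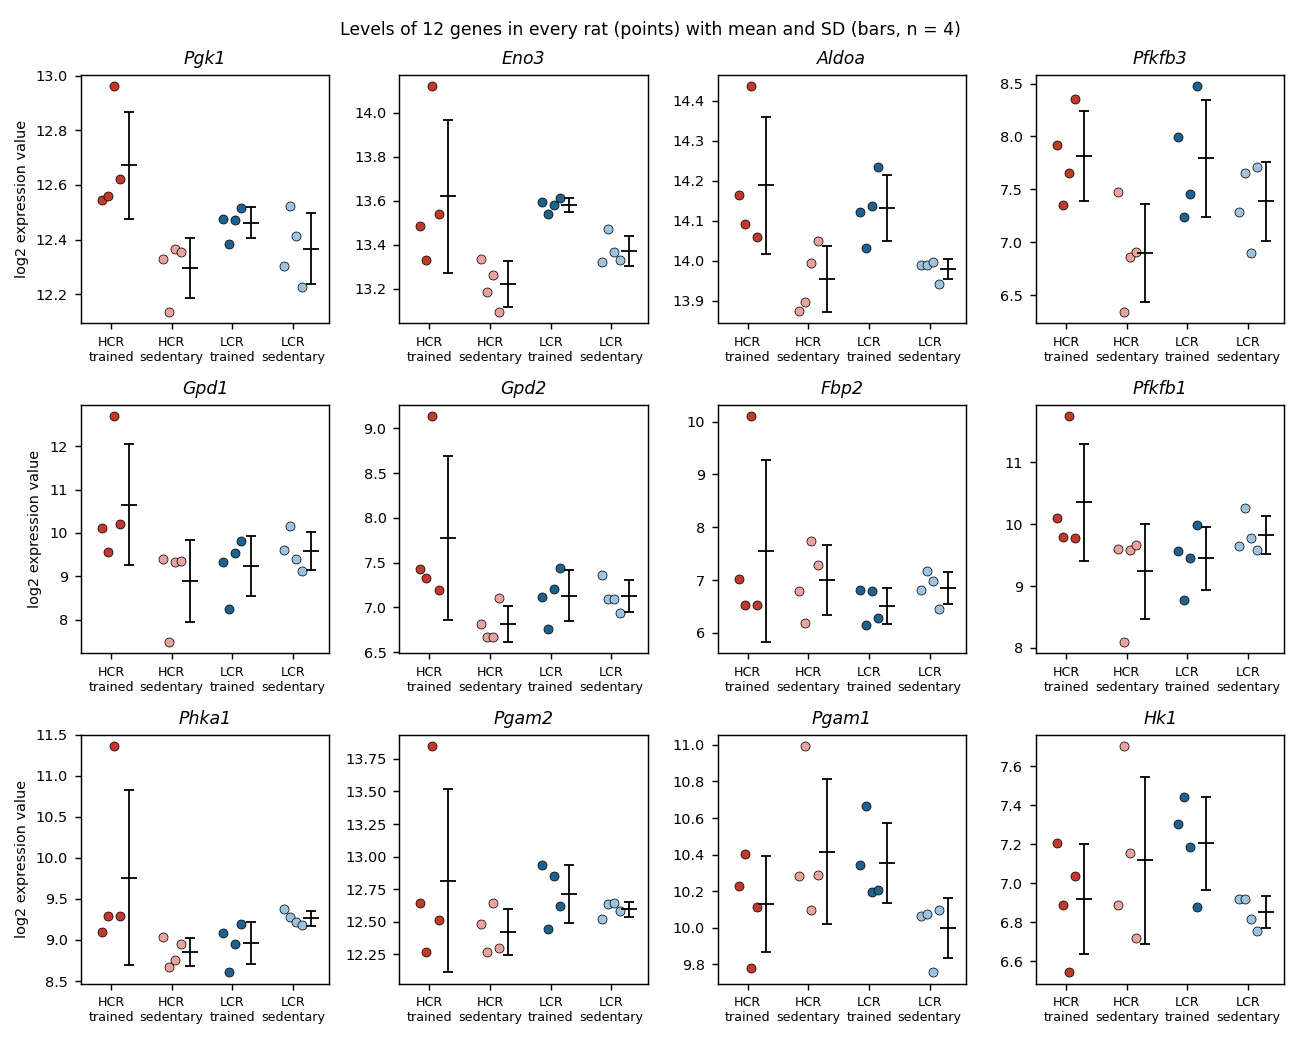
Log2 values of 12 genes in every rat (points), with group mean and SD (bars, n = 4), for HCR trained, HCR sedentary, LCR trained and LCR sedentary rats from left to right; each panel has its own axis. Trained rats lie above sedentary rats without overlap in both lines for Aldoa, narrowly so in HCR, and in HCR for Pgk1. HCR trained 3 lies far above the other HCR trained rats for Fbp2, Phka1 and Pgam2.

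Eno1, the enolase of most tissues, read 10.82, 10.58, 10.45 and 10.87 in HCR trained rats, against 10.80, 11.35, 10.67 and 10.68 in HCR sedentary rats. In LCR rats it read 10.62, 10.73, 10.62 and 10.51 in trained animals, against 10.58, 10.75, 10.63 and 10.59 in sedentary ones. Unlike Eno3, it had its highest value on HCR sedentary 2 and its lowest on HCR trained 3. Its training differences were -0.20 in HCR, 0.04 without both outlying arrays, and -0.02 in LCR rats, and over both training states the lines differed by 0.15 (adjusted p = 0.586).

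Pgam1, the phosphoglycerate mutase of most tissues, read 10.23, 10.40, 9.78 and 10.11 in HCR trained rats, against 10.29, 10.99, 10.10 and 10.29 in HCR sedentary rats. Its LCR values were 10.35, 10.66, 10.20 and 10.21 in trained rats, against 10.07, 10.08, 9.76 and 10.10 in sedentary rats. The LCR groups did not overlap. Neither did the sedentary lines, but these nearly met, at 10.098 in HCR and 10.097 in LCR rats. Training gave -0.29 in HCR (adjusted p = 0.426), 0.02 without both outlying arrays, and 0.35 in LCR rats (SE 0.18, adjusted p = 0.543), and the sedentary lines differed by 0.42 (adjusted p = 0.590). The difference of the training effects, -0.64 (SE 0.25, adjusted p = 0.205), had the smallest p of the members in that comparison and was -0.33 without both outlying arrays. Matrix markers lay on the same side as Pgam1 in these contrasts, with group means of -0.42 ± 0.11 in HCR trained, 0.36 ± 0.94 in HCR sedentary, 0.39 ± 0.63 in LCR trained and -0.34 ± 0.33 in LCR sedentary rats (SD, n = 4), and their part in the result was not tested.

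Pgam2, the muscle mutase, deviated the opposite way to Pgam1 on HCR trained 3 and HCR sedentary 2. It ranged from 12.27 to 13.85 in HCR trained rats, against 12.27 to 12.65 in HCR sedentary rats, and from 12.45 to 12.94 in LCR trained rats, against 12.52 to 12.65 in LCR sedentary rats. Its HCR training difference of 0.39 was 0.05 without HCR trained 3. Tpi1, triosephosphate isomerase, differed by 0.30 in HCR rats, 0.08 without HCR trained 3, and by 0.06 in LCR rats. The Gapdh control spot at the 3' end averaged 13.67 ± 0.15 in HCR trained and 13.58 ± 0.02 in HCR sedentary rats, and 13.63 ± 0.04 in LCR trained and 13.59 ± 0.06 in LCR sedentary rats (SD, n = 4). It was highest on HCR trained 3, at 13.85, and lay between 13.48 and 13.69 on the other arrays.

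The mutase isozymes deviated opposite ways on HCR trained 3 and HCR sedentary 2, while Eno3 and Pfkfb3 had positive training differences in both lines. Start-site sequences of these genes are shown for comparison. They are 300 bases each from RefSeq, build GRCr8, from 250 bases before to 50 after a start site of the RefSeq table, 5′ to 3′ on the gene's strand, with E-boxes in capitals. For both mutases that site is the end of the gene's annotated span, while it lies 306 bases inside the span for Eno3 and 51613 bases inside it for Pfkfb3. An E-box is the pattern CANNTG, which reads the same on both strands and is known as a site for myogenic and other helix-loop-helix factors.
Pgam2, chr14:84897825-84898124, minus strand: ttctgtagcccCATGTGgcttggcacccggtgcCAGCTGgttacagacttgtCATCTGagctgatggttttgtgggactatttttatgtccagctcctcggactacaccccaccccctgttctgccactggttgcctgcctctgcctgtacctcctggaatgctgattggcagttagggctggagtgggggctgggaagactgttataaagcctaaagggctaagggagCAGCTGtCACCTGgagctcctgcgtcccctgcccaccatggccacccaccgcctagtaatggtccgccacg
Pgam1, chr1:250672902-250673201, plus strand: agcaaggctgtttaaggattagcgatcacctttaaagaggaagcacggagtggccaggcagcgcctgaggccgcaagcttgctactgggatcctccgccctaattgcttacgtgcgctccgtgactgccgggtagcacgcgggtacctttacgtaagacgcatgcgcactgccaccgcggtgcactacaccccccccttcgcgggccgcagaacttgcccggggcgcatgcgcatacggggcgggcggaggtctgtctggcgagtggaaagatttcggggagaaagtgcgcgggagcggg
Eno3, chr10:55868936-55869235, plus strand: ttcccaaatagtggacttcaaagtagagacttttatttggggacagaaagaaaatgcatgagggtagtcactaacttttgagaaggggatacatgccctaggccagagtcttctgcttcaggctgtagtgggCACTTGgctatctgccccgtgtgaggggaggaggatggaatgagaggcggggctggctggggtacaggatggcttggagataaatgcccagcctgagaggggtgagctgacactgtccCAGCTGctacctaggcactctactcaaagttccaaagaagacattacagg
Pfkfb3, chr17:71944683-71944982, plus strand: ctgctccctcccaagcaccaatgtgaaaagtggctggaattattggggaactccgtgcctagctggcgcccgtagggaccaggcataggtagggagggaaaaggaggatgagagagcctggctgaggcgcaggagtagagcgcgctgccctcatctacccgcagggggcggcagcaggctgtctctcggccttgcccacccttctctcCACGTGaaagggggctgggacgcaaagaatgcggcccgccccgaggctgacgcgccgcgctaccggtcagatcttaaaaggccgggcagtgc
The window of Pgam2 held 5 E-boxes and that of Pgam1 held 0, while Eno3 held 2 and Pfkfb3 held 1. Windows were found for 30 of the 33 genes, some with several starts. E-boxes stood in 21 of 35 member windows (60%), against 72.1% of 33469 windows of all genes. The pattern ACGTG on either strand, the core of hypoxia response elements, which overlaps an E-box where it is part of CACGTG, stood in 16 of 35 (45.7%), against 19.3%. The MEF2 pattern stood in 1 of 35 (2.86%), against 3.29%. Such matches describe the letters of these windows and were not related to the array values.

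The PFKFB enzymes make and remove the fructose bisphosphate that activates phosphofructokinase. For training in HCR rats 3 of 4 had a positive difference, with a median of 0.83 that was 0.25 without both outlying arrays, and for training in LCR rats 1 of 4, with a median of -0.18. Pfkfb3, the form in which the kinase activity dominates, read 7.92, 7.35, 7.65 and 8.35 in HCR trained rats, against 7.48, 6.34, 6.86 and 6.91 in HCR sedentary rats. In LCR rats Pfkfb3 read 7.99, 7.24, 7.46 and 8.48 in trained animals, against 7.28, 7.65, 6.90 and 7.71 in sedentary ones. The groups overlapped in both lines.

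The Pfkfb3 differences were 0.92 in HCR (SE 0.30, 1.89-fold, adjusted p = 0.146), 0.40 in LCR (adjusted p = 0.667) and 0.66 over both lines (SE 0.21, adjusted p = 0.303). The HCR difference was 0.98 without HCR trained 3 and 0.79 without both outlying arrays. Other probe sets of Pfkfb3, which were dimmer, gave -0.15 and -0.00088 in HCR rats, so the difference was seen with the brightest probe set alone.

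Pfkfb1, known from liver and muscle, read 10.09, 9.79, 11.75 and 9.78 in HCR trained rats, against 9.60, 8.09, 9.59 and 9.66 in HCR sedentary rats. Its LCR values were 9.57, 8.78, 9.45 and 9.99 in trained rats, against 9.66, 10.26, 9.78 and 9.58 in sedentary rats. The HCR groups did not overlap, although the gap between 9.66 and 9.78 was small, and the LCR groups overlapped. The HCR difference of 1.12 (SE 0.43, adjusted p = 0.202) was 0.27 without both outlying arrays, and the LCR difference was -0.37. Their difference, 1.49 (adjusted p = 0.219), was 0.64 without both arrays.

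Pfkfb4, known from testis and tumours, read 6.99, 6.52, 8.31 and 6.95 in HCR trained rats, against 6.64, 6.10, 6.66 and 6.44 in HCR sedentary rats. In LCR rats the values were 6.68, 6.02, 6.87 and 6.31 in trained animals, against 6.94, 7.03, 6.48 and 6.70 in sedentary ones. The groups overlapped in each comparison. Pfkfb4 had the smallest p of the members between trained HCR and LCR rats, at 0.72 (SE 0.30, adjusted p = 0.204), and this was 0.35 without HCR trained 3. The difference of training effects was 1.05 (adjusted p = 0.214) with all arrays and 0.55 without both. The other Pfkfb4 probe set, which was dimmer, gave 0.07 between the trained lines and 0.08 for the difference of training effects. Pfkfb2, the heart form, differed by -0.09 in HCR and -0.04 in LCR rats.

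Fbp2, the muscle fructose bisphosphatase that reverses the phosphofructokinase step, had the widest gap, in log2 units, between HCR trained 3 and the mean of the other HCR trained arrays. It read 7.02, 6.53, 10.10 and 6.52 in HCR trained rats, against 6.78, 6.19, 7.74 and 7.29 in HCR sedentary rats. In LCR rats it read 6.81, 6.15, 6.79 and 6.29 in trained animals, against 6.81, 7.17, 6.97 and 6.44 in sedentary ones. Apart from HCR trained 3, trained and sedentary values overlapped in both lines. The HCR difference of 0.55 (SE 0.61, adjusted p = 0.686) was -0.31 without HCR trained 3, and the LCR difference was -0.34 (adjusted p = 0.876). Without both outlying arrays the difference over both lines was -0.46 (adjusted p = 0.221).

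Gpd1 and Gpd2, the cytosolic and mitochondrial dehydrogenases of the glycerol-phosphate shuttle, carry reducing power from glycolysis to the mitochondrion. Gpd1 read 10.11, 9.57, 12.70 and 10.22 in HCR trained rats, against 9.40, 7.48, 9.34 and 9.36 in HCR sedentary rats. Its LCR values were 9.33, 8.25, 9.55 and 9.82 in trained rats, against 9.60, 10.16, 9.41 and 9.12 in sedentary rats. All 4 HCR trained arrays lay above all HCR sedentary ones, and the LCR groups overlapped. The HCR difference, 1.76 (SE 0.60, 3.38-fold, adjusted p = 0.162), was the largest of any member and was 1.07 without HCR trained 3 and 0.60 without both outlying arrays.

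Between trained HCR and LCR rats Gpd1 differed by 1.41 (SE 0.60, adjusted p = 0.210), which was 0.73 without HCR trained 3. The training effects differed by 2.09 (SE 0.85, adjusted p = 0.213) with all arrays and by 0.94 without both outlying arrays. LCR trained 2, at 8.25 against 9.33 to 9.82 on the other LCR trained arrays, was kept in both values. The other Gpd1 probe set, which was dimmer, gave 0.68 in HCR rats (SE 0.49). Gpd2 read 7.43, 7.32, 9.14 and 7.19 in HCR trained rats, against 6.82, 6.67, 6.66 and 7.10 in HCR sedentary rats. For LCR rats the values of Gpd2 were 7.11, 6.75, 7.20 and 7.44 in trained animals, against 7.36, 7.10, 7.09 and 6.93 in sedentary ones. The HCR groups did not overlap, and the difference was 0.96 (SE 0.32, adjusted p = 0.154), or 0.50 without HCR trained 3 (adjusted p = 0.104). The LCR difference of Gpd2 was 0.01.

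**Figure D4:**
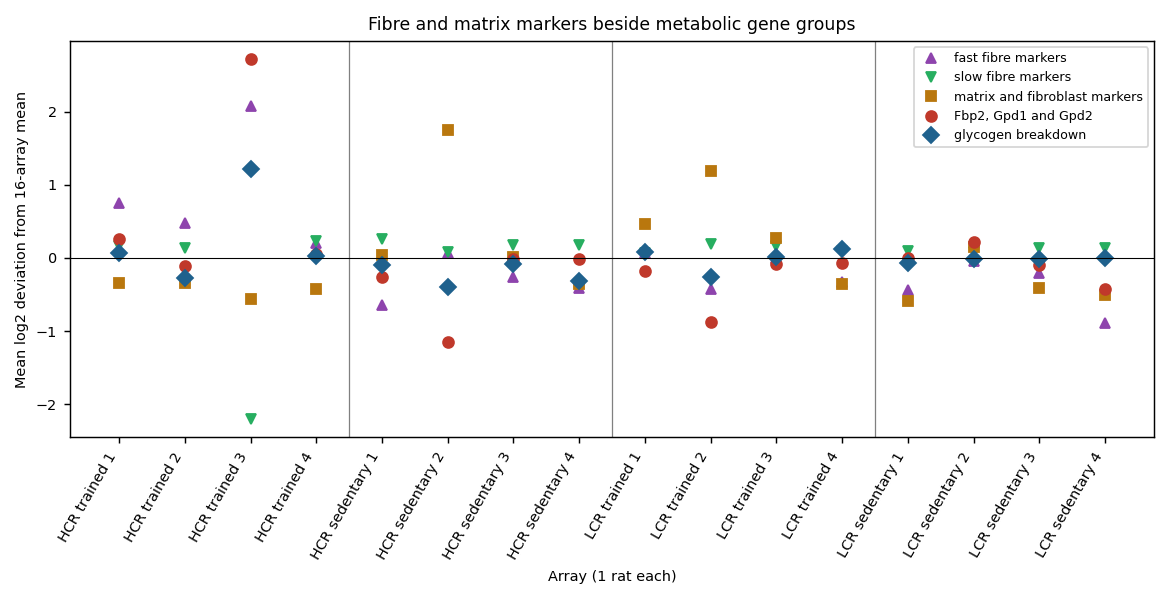
Mean log2 deviation from the 16-array mean, on each array (1 rat each), of fast fibre, slow fibre and matrix markers beside Fbp2 with Gpd1 and Gpd2, and the 5 glycogen breakdown genes. On HCR trained 3 fast markers stand at 2.08, slow markers at -2.20 and the Fbp2 group at 2.72; on HCR sedentary 2 matrix markers stand at 1.74 and the Fbp2 group at -1.14.

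Glycogen breakdown held 5 genes, of which 4 had a positive training difference in HCR rats (median 0.41, or 0.16 without both outlying arrays) and 3 in LCR rats (median 0.04). Pygm, the muscle glycogen phosphorylase, read 13.30, 13.14, 13.75 and 13.14 in HCR trained rats, against 13.00, 12.46, 13.11 and 13.11 in HCR sedentary rats. In LCR rats it read 13.10, 12.87, 13.16 and 13.28 in trained animals, against 13.15, 13.22, 13.17 and 13.09 in sedentary ones. The HCR groups did not overlap but nearly met, at 13.14 and 13.11, and the LCR groups overlapped. The HCR difference of 0.41 (SE 0.15, 1.33-fold, adjusted p = 0.186) was 0.12 without both outlying arrays, and the LCR difference was -0.06. Other probe sets of Pygm gave -0.22 and 0.04 in HCR rats. The probe set with -0.22 read 8.68 on HCR trained 2 and 10.70 to 12.85 on the other HCR trained arrays.

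Pygb, the brain-type phosphorylase, read 7.66, 7.67, 7.33 and 7.55 in HCR trained rats, against 7.36, 7.86, 7.48 and 7.55 in HCR sedentary rats. The LCR values of Pygb were 7.35, 7.43, 7.38 and 7.42 in trained rats, against 7.60, 7.43, 7.26 and 7.16 in sedentary rats. Training differences were -0.01 in HCR, 0.16 without both outlying arrays, and 0.04 in LCR rats, with overlap in both. It had the smallest p of the members for the lines over both training states, HCR minus LCR, at 0.18 (SE 0.08, adjusted p = 0.467).

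Phosphorylase kinase switches glycogen phosphorylase on. Its regulatory alpha subunit of muscle, Phka1, ranged from 9.10 to 11.36 in HCR trained rats, against 8.67 to 9.04 in HCR sedentary rats, and from 8.61 to 9.19 in LCR trained rats, against 9.18 to 9.38 in LCR sedentary rats. The HCR training groups did not overlap, and neither did the sedentary lines. The training difference was 0.91 in HCR (adjusted p = 0.211), which was 0.37 without HCR trained 3, and -0.30 in LCR rats (adjusted p = 0.804), and their difference was 1.21 (adjusted p = 0.226). Without HCR trained 3 that difference was 0.68 with an adjusted p of 0.0827. The beta subunit Phkb differed by 0.33 in HCR rats with all arrays and by -0.16 without HCR trained 3. On HCR trained 2, the array with the widest GAPDH gap, Phkb read 8.91, against 9.74 and 9.76 on HCR trained 1 and HCR trained 4. The catalytic subunit Phkg1 differed by 0.77 in HCR and 0.35 in LCR rats, and the HCR value was 0.26 without HCR trained 3.

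Glycogen synthesis held 6 genes and had 3 positive training differences in HCR rats (median 0.03, or 0.02 without both outlying arrays) and 0 of 6 in LCR rats (median -0.15). Gys1, the muscle glycogen synthase, read 11.73, 11.36, 11.51 and 11.65 in HCR trained rats, against 11.61, 11.03, 11.65 and 11.49 in HCR sedentary rats. In LCR rats Gys1 read 11.47, 11.35, 11.46 and 11.60 in trained rats, against 11.61, 11.67, 11.62 and 11.57 in sedentary rats. Both pairs overlapped, and the differences were 0.11 in HCR (adjusted p = 0.660) and -0.15 in LCR rats (adjusted p = 0.700). The lowest value was on HCR sedentary 2, and the HCR difference was -0.02 without it and -0.01 without both outlying arrays.

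Gyg1, glycogenin, the protein that primes a new glycogen chain, read 12.81, 12.94, 12.61 and 12.81 in HCR trained rats, against 12.59, 12.62, 12.72 and 12.88 in HCR sedentary rats. In LCR rats Gyg1 read 12.67, 12.54, 12.68 and 12.79 in trained animals, against 12.86, 12.75, 12.80 and 12.91 in sedentary ones. One trained LCR value lay above the lowest sedentary one, so the groups overlapped slightly. The LCR difference was -0.16 (SE 0.08, adjusted p = 0.544), the HCR difference 0.09 (adjusted p = 0.620; 0.15 without HCR trained 3) and the difference of the training effects 0.25 (adjusted p = 0.272).

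Pgm1, which interconverts glucose phosphates, differed by 0.53 in HCR rats with all arrays and by 0.13 without HCR trained 3, and by -0.19 in LCR rats. Ugp2, which makes the UDP-glucose that synthase uses, differed by -0.06 in HCR rats with all arrays, -0.29 without HCR trained 3 and -0.39 without both outlying arrays, and by -0.16 in LCR rats. Gbe1, the branching enzyme, read 10.69 on HCR trained 3 and 11.90 to 12.15 on the other HCR trained arrays, and its HCR difference was -0.02 with that array and 0.31 without it. Epm2a, laforin, a glycogen phosphatase, differed by -0.15 in HCR rats, -0.22 without HCR trained 3 (adjusted p = 0.142), and by -0.01 in LCR rats.

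Among trained rats the median HCR minus LCR difference over the 31 genes was 0.10, with 25 positive, beside 0.044 over all probe sets. Without HCR trained 3 the sign of this difference turned for 9 of the 31 genes. Among sedentary rats the median was -0.14, with 9 positive, beside 0.0057 over all probe sets, and it was -0.060 without both outlying arrays. The comparison of trained lines shares the HCR trained arrays with that of training in HCR rats, and the sedentary lines share their arrays with both training comparisons. Over both training states the median was 0.04, with 18 positive, beside 0.023 over all probe sets, and it was -0.026 without HCR trained 3. The difference of training effects had a median of 0.26 over the members, with 23 positive, beside 0.035 over all probe sets, and it was 0.029 without HCR trained 3. Training over both lines had a median of 0.18, with 24 positive, beside -0.012 over all probe sets, and it was 0.093 without HCR trained 3 and 0.054 without both outlying arrays.

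Other genes of the pathways were counted from lists of known members, by their brightest probe set. Of other glycolysis genes 8 of 14 were measured, of other glycogen genes 14 of 17, of genes for glucose entry and the fate of pyruvate 21 of 23, and of the pentose phosphate pathway 6 of 7. In none of the 7 comparisons did a gene of these 4 lists pass in either direction. For training in HCR rats the unadjusted p was under 0.05 in 2 of 8, 3 of 14, 3 of 21 and 1 of 6 genes, which is 25%, 21.4%, 14.3% and 16.7%, beside the 17.7% of all probe sets. Hk2, the insulin-regulated hexokinase of muscle, had the smallest p of other glycolysis genes in that comparison, at -0.78 (SE 0.32, adjusted p = 0.225), opposite in sign to most members. In HCR trained rats Hk2 read 6.56, 5.71, 6.74 and 6.33, against 6.94, 7.82, 7.19 and 6.51 in HCR sedentary rats, and between trained HCR and LCR rats it differed by -1.24 (adjusted p = 0.0766). Its HCR trained values all lay below the LCR trained values of 7.81, 7.36, 7.68 and 7.43.

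Pdp2, a phosphatase that switches pyruvate dehydrogenase on, had the smallest p of the glucose entry and pyruvate list between trained lines, at -0.65 (SE 0.14, adjusted p = 0.0569). It read 6.58, 6.54, 5.82 and 6.44 in HCR trained rats, against 6.98, 6.91, 6.97 and 7.11 in LCR trained rats, with no overlap. Slc2a8, a glucose transporter of inner membranes, differed by 0.44 for training in HCR rats (SE 0.13, adjusted p = 0.127) and by 0.43 between trained lines (adjusted p = 0.109). In HCR trained rats Slc2a8 read 7.32, 7.54, 7.74 and 7.47, against 6.93, 6.73, 7.28 and 7.37 in HCR sedentary rats, so these overlapped. Among glycogen regulators Gsk3a and Gsk3b, the kinases that inhibit glycogen synthase, differed by 0.24 (adjusted p = 0.160) and -0.78 (adjusted p = 0.176) for training in HCR rats.

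The 16 fast fibre markers averaged 0.88 ± 0.83 in HCR trained rats and -0.31 ± 0.30 in HCR sedentary rats, and the 14 slow fibre markers -0.42 ± 1.19 in HCR trained and 0.18 ± 0.07 in HCR sedentary rats (SD, n = 4 rats, log2 deviation from the 16-array mean). Over arrays, the fast marker mean ran from 0.20 to 2.08 in HCR trained rats, against -0.65 to 0.06 in HCR sedentary rats, without overlap. Without HCR trained 3 the slow markers of HCR trained rats averaged 0.17, so their lower mean came from that array, and the fast markers averaged 0.48. The median HCR training difference over the fast list was 0.27, with 13 of 16 positive, and its mean was carried by Myh4, Actn3, Pvalb and Mybpc2 at 3.17 to 5.09, the last 2 chosen after their values were seen. In LCR rats fast markers averaged -0.17 ± 0.24 in trained and -0.39 ± 0.37 in sedentary animals. Myh4, the type IIB myosin heavy chain, was the only gene of the fast list that passed for training in HCR rats, at 5.09 (SE 0.87, adjusted p = 0.0475), and 1 of 16 passed in that direction and 0 in the other. It read 11.08, 8.43, 13.57 and 9.98 in HCR trained rats, against 4.76, 8.03, 4.88 and 5.05 in HCR sedentary rats, so all 4 trained arrays lay above all sedentary ones. The beta-actin control index is the signal at the 3' end minus that at the middle, and depends on RNA and labelling. It averaged 1.90 in HCR trained and 1.18 in HCR sedentary rats. With this index as a covariate in limma the members' median for training in HCR rats was 0.328 and their smallest adjusted p 0.579. The part of fibre makeup in the members' values was not tested.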

How the data were processed

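Biotin-labelled soleus RNA from 16 rats was measured on rat expression arrays, a single array for each animal. Expression is on the log2 scale, as the authors deposited it, with a value for every probe set. Per the submitters' processing notes RMA and limma were used; their versions are not given in the sources used here, nor is whether all arrays were summarised together. Because RMA equalises the arrays, a shift shared by every probe set cannot be seen. Detection calls were not used, and precision is limited by how many arrays there were.

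From these values 57 control probe sets were left out and 4 group means were fitted to 31042 probe sets over 16 arrays with limma 3.58.1 in R 4.3.3 (12 residual degrees of freedom), with Benjamini-Hochberg adjustment over all probe sets within each of 7 comparisons. p-values rest on the spread between rats. The fit was tested on simulated data. Symbols came from the platform annotation, and all 31 members kept their symbol in RefSeq's GRCr8 table. 11 members had more than 1 probe set, 17 others in all, of which 11 had the sign of the brightest for training in HCR rats.

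Members and lists were chosen with earlier results of these data known. Values are given for members that passed, otherwise for the 3 of smallest p in each comparison, and on every array for these and for Hk1, Pfkm, Pfkfb1, Pfkfb3, Fbp2, Gpd1, Gpd2, Pygm and Gys1. Other list genes are named where they passed or had one of the smallest p of their list, except Myh7 and Mybpc2. Between trained HCR and LCR rats limma also called Myh4 (5.48, adjusted p = 0.0281) and Dcn, a matrix marker (-0.66, adjusted p = 0.0391). Alternatives were other normalizations, filters, variance models, array weights, a replicate block, a covariate, other probe sets and left-out arrays.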

Additional observations from a re-analysis of the deposited data

Results flagged for a closer look

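In 14 of 124 gene and group combinations of 4 rats, 1 rat lay apart, with a gap to the nearest other value that exceeded Dixon's 95% critical share of the group's range. Chance flags about 1 in 20 such groups. HCR trained 3 accounted for 7 of the 14 and HCR sedentary 2 for 3.

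On HCR trained 3, Phka1 was highest at 11.363, against 9.0964 to 9.2946 on the other arrays of its group (gap 0.913 of the range), and Tpi1 was highest at 13.7, against 12.773 to 12.87 (0.895). Gpd2 (0.878), Fbp2 (0.86), Pfkfb1 (0.841) and Pgm1 (0.841) were also highest on that array, and Gbe1 was lowest there (0.831). On HCR sedentary 2, Gpd1 was lowest at 7.4768, against 9.3355 to 9.4024 (0.965), as were Pfkfb1 at 8.0922 (0.952) and Pgk1 at 12.135 (0.841). On LCR trained 2, Phkb was lowest at 9.6077, against 9.8982 to 9.9018 (0.988), and Ugp2 at 11.803, against 12.363 to 12.403 (0.934). In LCR sedentary rats Pgam1 was lowest on array 3, at 9.7565 against 10.066 to 10.097 (0.909), and Aldoa on array 4, at 13.942 against 13.988 to 13.997 (0.84).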

How the results depend on the processing

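For the 3 members of smallest p in each comparison, 554 of 558 values under alternative settings kept direction and side of the threshold and 4 newly passed, all with array weights. These were Pgk1 for training in HCR rats (0.27, adjusted p = 0.0438) and Pgk1, Aldoa and Eno3 for training over both lines (0.20, 0.16 and 0.25), so array weights gave 1 and 3 members called where the main counts were 0. The other counts of members called stayed at 0. As no member passed in the main fit, a value could change sides only by newly passing. The 3 members were also picked by smallest p from the same values. Leaving out an array of a group not compared cannot change a difference of means or its median over members. The median over members for training in HCR rats was 0.121 without HCR trained 3 and HCR sedentary 2, 0.163 with array weights, and 0.147 to 0.412 when 1 array at a time was left out. The median of the difference of training effects was 0.0300 with array weights, 0.0195 without both arrays and 0.0289 to 0.325 with 1 array left out; the lowest value in each case came without HCR trained 3, and the cause was not tested. Of 186 medians 181 moved by less than the spread of the member median between rats (SD 0.176). That SD includes HCR trained 3, whose median member deviation was 0.62, while HCR trained 1, 2 and 4 had 0.094, -0.017 and 0.016. It is also a spread of single rats, while the medians compared are of differences of group means. Medians that could not change when an array was left out count as unmoved. The count of 181 therefore cannot show that the medians were stable. Over all 31 members, leaving out both arrays turned the sign of 12 HCR training differences, all of them uncalled, against 6 without HCR trained 3 and 5 without HCR sedentary 2. Fits restricted to the groups compared could not be made for the difference of training effects and the averaged comparisons. The deviations of same-numbered arrays correlated at r from -0.48 to 0.57 over 24 pairs, 8 above 0.1. With 4 rats in a group these values cannot decide whether the numbers pair the rats. With a replicate block 0 members passed and the HCR training median was 0.328. Over all probe sets the calls for training in HCR rats were 58, against 1304 with array weights, 2 with the block and 1 with the beta-actin covariate. Array signals carry no count of molecules, so dim probe sets such as that of Epm2a limit what could be seen.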
